A study of Mus musculus with 6 samples.

Results

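The genes examined here encode the machinery that builds branched actin in macrophages: the Arp2/3 complex (Actr2, Actr3, Arpc2 and Arpc5), the WAVE complex subunit Nckap1l, the GTPases Rac1, Rac2 and Cdc42, and the scaffold Iqgap1. The footprints described are the Argonaute (Ago) footprints that overlap 1 of these 9 genes on its own strand in GENCODE vM1. There were 38 such footprints among 6270 in all, each of the 9 genes held at least 1, and all 38 overlapped an annotated 3′ UTR. The footprints come from HITS-CLIP: RNA is cross-linked to Ago, pulled down with an antibody (here 2A8) and sequenced. The cells were bone-marrow-derived macrophages of C57BL/6 mice aged 6 to 12 weeks, matured for 7 days with M-CSF (20 ng/mL in the starting medium). WT cells and cells lacking the RNA-editing enzyme APOBEC1 (KO) came from 3 pairs of littermates, 1 library per mouse, and what was removed from Apobec1 in these mice is not stated in the labels. The authors combined the 3 libraries of a genotype into 1 occupancy value, so each value below is the authors' combined value, no difference has a replicate check or a test, and no SD can be given.

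Rac and Cdc42 are molecular switches that are active when bound to GTP. Active Rac recruits the WAVE complex, WAVE and WASP proteins turn on Arp2/3, and Arp2/3 starts new actin branches on the side of existing filaments. Macrophages use these branches to crawl, to ruffle and to engulf particles. Ago proteins are led to mRNAs by miRNAs, chiefly through pairing of the miRNA seed (bases 2 to 8) with 3′ UTRs, and usually lower the stability or translation of the mRNA.

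Of the 28 miRNAs searched for, which form 26 groups with distinct seeds, 9 miRNAs of 8 groups had a 7-nt match in a footprint of these genes. The mature sequences are from RefSeq (GRCm38.p6), with the seed in capitals, and are shown because they name the candidate guides. miR-15a-5p and miR-16-5p share a seed.
miR-15a-5p: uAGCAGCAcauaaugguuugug
miR-16-5p: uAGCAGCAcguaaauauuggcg
miR-103-3p: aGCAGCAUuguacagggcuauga
miR-23a-3p: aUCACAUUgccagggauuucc
miR-25-3p: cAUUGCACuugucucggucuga
miR-142a-5p: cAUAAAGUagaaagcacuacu
miR-26a-5p: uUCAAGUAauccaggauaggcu
miR-21a-5p: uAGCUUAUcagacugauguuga
miR-29a-3p: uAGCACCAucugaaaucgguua

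The matches lay in 6 of the 38 footprints (15.8%), against 19.4% of all footprints. Each group of miRNAs had its match in 1 of the 38. Over all footprints the shares were 1.99% for miR-15a-5p and miR-16-5p, 1.52% for miR-23a-3p, 0.973% each for miR-103-3p and miR-142a-5p, 0.893% for miR-29a-3p, 0.781% for miR-25-3p, 0.702% for miR-26a-5p and 0.431% for miR-21a-5p. A shorter match of 6 nt (bases 2 to 7) to any listed seed was in 15 of the 38 and in 48.1% of all, and a 7-nt match in the central part of the footprint in 2 of the 38 and 11.4% of all. Each stretch below is 30 bases of the mRNA strand of mm9, 5′ to 3′, with the match in capitals.
Actr2 with miR-15a-5p and miR-16-5p: gttagctttcagcaggtcacTGCTGCTact
Actr3 with miR-23a-3p: tcgtttcttattaaaacaatAATGTGAtta
Arpc5 with miR-25-3p: atttatattcaagtttgattGTGCAATttc
Arpc5 with miR-142a-5p: ttgcctggtttaagggttttACTTTATttt
Nckap1l with miR-26a-5p: gggaggtttcccgggccttcTACTTGAacc
Nckap1l with miR-103-3p: ctttggaggtgccaagaaccATGCTGCagt
Iqgap1 with miR-21a-5p: ctgatgtatatcaaaggccaATAAGCTctt
Cdc42 with miR-29a-3p: ttagcaaacgtgtccccaccTGGTGCTctt

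The stretches lie at chr11:19964199-19964228 (minus strand) for Actr2, chr1:127289879-127289908 (minus) for Actr3, chr1:154621713-154621742 and chr1:154621751-154621780 (plus) for Arpc5, chr15:103327922-103327951 and chr15:103327980-103328009 (plus) for Nckap1l, chr7:87857519-87857548 (minus) for Iqgap1 and chr4:136876432-136876461 (minus) for Cdc42. All but the miR-26a-5p match of Nckap1l, which is in the coding sequence just before the 3′ UTR, are in the 3′ UTR. In Actr2 and in both Nckap1l matches an A follows the match, the extended 8-nt form, which 2 of the 38 footprints (5.26%) and 7.54% of all footprints held. The footprint of the Actr2 match had an occupancy of 2.26 in KO and 0.883 in WT, the highest KO value among the 38 footprints, and its match lay 13.5 nt from the footprint's centre. The Cdc42 match lay in the weakest Cdc42 footprint, listed at 0 in KO and at 0.0230 in WT, 28 nt from the centre. No footprint of Arpc2, Rac1 or Rac2 held a 7-nt match to a listed seed. Along the annotated 3′ UTRs of the 9 genes there were 29 such matches, of which 7 (24.1%) lay inside a footprint, while the footprints covered 21.4% of the 13928 nt. A match is a description of letters and does not show that the miRNA was bound there. The pentamer ATTTA, searched on the mRNA strand as a short AU-rich element, was in 4 of the 38 footprints (10.5%) and in 11.9% of all.

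Ago occupancy, the footprint signal divided by the RNA-Seq expression of its transcript, had a lower median on these genes than over the table as a whole. Its median over the 38 footprints was 0.161 in KO and 0.155 in WT, against 0.377 and 0.406 over all 6270. KO values ran from 0 to 2.26, WT values from 0.00764 to 1.39. In 8 of the 38 footprints the mean of both genotypes was at or above the table median of 0.425. These were 3 footprints of Actr2, 2 of Iqgap1 and 1 each of Actr3, Nckap1l and Rac1. In such bulk cultures a ratio shared by all cells and one that differs between cells cannot be told apart.

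**Figure D1:**
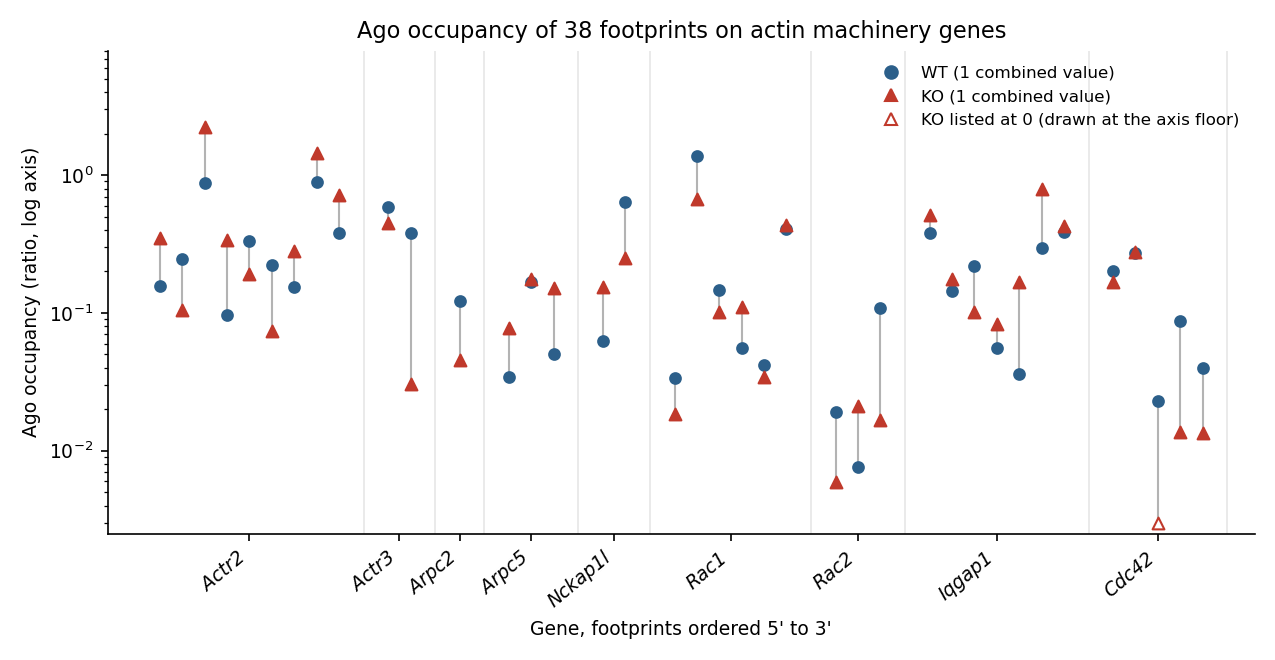
Ago occupancy (vertical log axis, ratio) of the 38 footprints, grouped by gene and ordered 5′ to 3′ within a gene; circles are the WT and triangles the KO value, each 1 combined value of 3 libraries, joined by a line (open triangle, KO listed at 0). The third Actr2 footprint is highest in KO (2.26) and the second Rac1 footprint highest in WT (1.39), and the 3 Rac2 footprints lie low in both genotypes.

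The footprints of these genes split in both directions between the genotypes. By log2 ratio of KO over WT, 20 of 38 were higher in KO (48.7% of all footprints were). A difference of at least 2-fold was seen for 9 footprints higher in KO (23.7%; 18.9% of all) and 12 lower (31.6%; 24.2% of all), 1 of the 12 being listed at 0 in KO. The median log2 ratio was 0.03, against -0.04 over the table. It was -0.26 without Actr2 or without Arpc5 and -0.29 without Iqgap1, so its sign rests on each of these genes. By summed occupancy 3 of the 9 genes were higher in KO (47.8% of all genes were), Actr2, Arpc5 and Iqgap1, none of them by 2-fold (11.7% of all genes were). The other 6 were lower, of which Arpc2 and Rac2 were at least 2-fold lower (17.9% of all genes were).

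**Figure D2:**
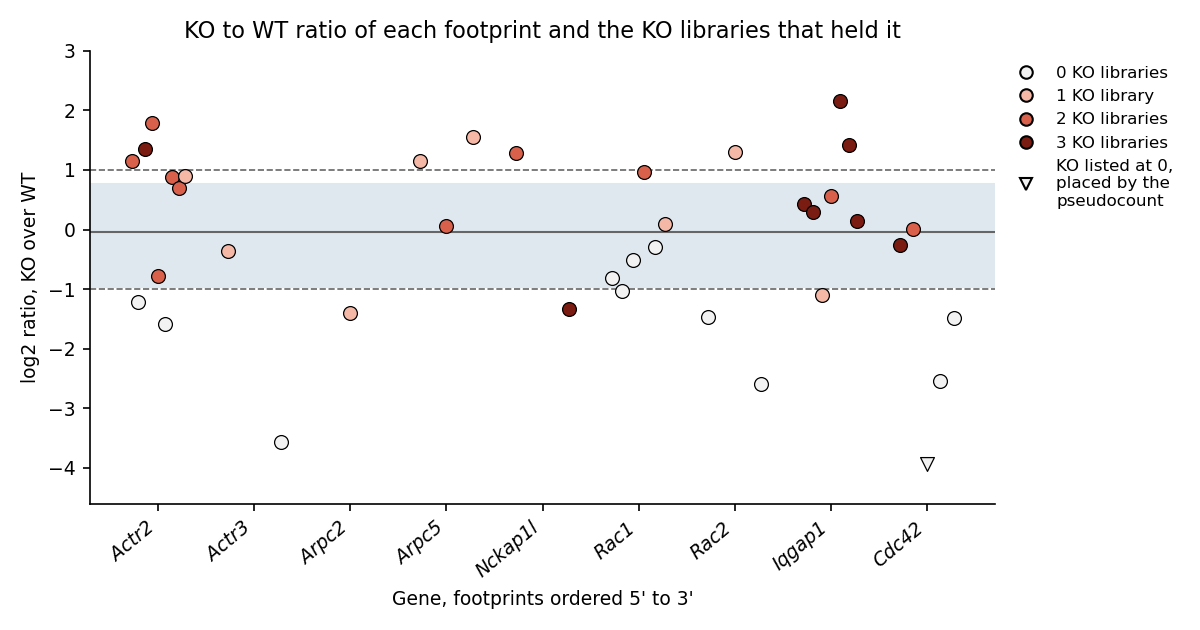
log2 ratio of KO over WT for each footprint, by gene and 5′ to 3′ order, shaded by the number of KO libraries (0 to 3) that held it. The solid line and the band give the median (-0.04) and quartiles (-0.96 and 0.76) of all footprints, and dashed lines mark 2-fold; the palest points, held by no KO library, are all below 0.

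Actr2 encodes Arp2, one of the actin-related proteins that form the seed of the new branch, and carried the most footprints of the 9 genes. Its 9 footprints spanned most of a 2388-nt 3′ UTR (chromosome 11, minus strand) and covered 26.8% of it. Its occupancies summed to 5.75 in KO and to 3.37 in WT (log2 ratio 0.77). From 5′ to 3′ the occupancies in KO were 0.349, 0.106, 2.26, 0.339, 0.193, 0.0734, 0.282, 1.44 and 0.714. The WT occupancies in the same order were 0.157, 0.247, 0.883, 0.0966, 0.335, 0.225, 0.153, 0.890 and 0.384. Both genotypes thus had their main footprints at the third, with the miR-15/16 match (19964157 to 19964226), and the eighth (19962714 to 19962783).

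Within Actr2, 6 footprints were higher and 3 lower in KO. The third, held by 3 KO and 2 WT libraries, had a log2 ratio of 1.35, and the fourth had the highest ratio of the gene, 1.79 (2 KO and 1 WT library; 19963958 to 19964024). The second and sixth were the lowest, at -1.21 and -1.59 (the sixth at 19963392 to 19963456), and no KO library held either. The fifth, held by 2 KO and 3 WT libraries, had -0.79. As a share of the gene's summed occupancy, in which the expression divisor cancels if it was 1 value per transcript and genotype (not stated in the labels), the third footprint held 39.2% in KO and 26.2% in WT, and the eighth 25.1% and 26.4%. The second footprint held 1.84% and 7.32%, and the first, 13 nt from it, 6.06% and 4.65%. The first was held by 2 KO libraries and 1 WT library, the second by 0 KO and 2 WT libraries. A footprint enters the table through 2 libraries of either genotype, so the first entered through KO alone and the second through WT alone.

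The other Arp2/3 genes carried fewer and weaker footprints. Actr3 encodes Arp3, the partner of Arp2, and had 2 footprints on chromosome 1, both lower in KO. The first, with the miR-23 match (127289878 to 127289960), had 0.453 in KO and 0.583 in WT, and was held by 1 KO and 2 WT libraries. The second (127289694 to 127289774) had 0.0305 in KO and 0.379 in WT, and its log2 ratio of -3.57 was the lowest of the 37 with a KO value above 0. All 3 WT libraries held it, and no KO library did. The first footprint's share of the gene was thus 93.7% in KO and 60.6% in WT.

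Arpc2, which with Arpc4 forms the core that binds the mother filament, had a single footprint (74314506 to 74314568 on chromosome 1) of 0.0454 in KO against 0.123 in WT (log2 ratio -1.40). It was held by 1 KO and 3 WT libraries. Arpc5, a small subunit that links Arp2 to the rest of the complex, was the only gene of at least 2 footprints whose footprints were all higher in KO. Its 3 footprints had 0.0779, 0.175 and 0.152 in KO and 0.0344, 0.168 and 0.0508 in WT. Its middle and strongest footprint (154621693 to 154621836), with the miR-25 and miR-142-5p matches, was nearly equal in both genotypes, at a log2 ratio of 0.05. The first had 1.14 and the third, the highest of the gene (154622224 to 154622291), had 1.55, each held by 1 KO and 2 WT libraries.

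Nckap1l (also called Hem1) is the blood-cell form of a WAVE complex subunit, and its footprints lay on opposite sides of equality. The first (103327940 to 103328018 on chromosome 15) spans the end of the coding sequence, with 32 nt in it, and holds the miR-26 and miR-103 matches. Its occupancy was 0.154 in KO against 0.0625 in WT (log2 ratio 1.28). The second (103329022 to 103329091), 1003 nt further on, had 0.251 in KO against 0.635 in WT (log2 ratio -1.34), and all 6 libraries held it. The first footprint made up 38.1% of the gene's occupancy in KO and 8.97% in WT. Summed, the gene had 0.405 in KO against 0.697 in WT (log2 ratio -0.78).

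Rac1, the widely expressed Rac, carried 6 footprints in a 1500-nt 3′ UTR on chromosome 5, with a sum of 1.38 in KO and 2.07 in WT (log2 ratio -0.59). From 5′ to 3′ the KO occupancies were 0.0186, 0.676, 0.102, 0.110, 0.0341 and 0.437, and the WT occupancies 0.0336, 1.39, 0.146, 0.0557, 0.0422 and 0.409. The second (144267540 to 144267616) was the strongest in both, and the highest WT value of the 38 footprints. Its ratio was -1.03, the lowest of the gene, and it was held by 2 WT libraries and by no KO library. The fourth, at 144266838 to 144266900, was the highest of the gene at 0.96, and the only one of the 6 held by more than 1 KO library. Among the 2 footprints that at least 1 library of both genotypes held, Rac1 was higher in KO by sum, with a log2 ratio of 0.24. The same restriction moved the median ratio over all footprints from -0.04 to 0.28. The order of the 6 footprints was nearly the same in both genotypes, with a Spearman coefficient of 0.943.

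Rac2, the Rac of blood cells, which also supports the phagocyte oxidase, had 3 footprints on chromosome 15. They had 0.00594, 0.0211 and 0.0167 in KO and 0.0192, 0.00764 and 0.109 in WT, and the WT value of 0.00764 is the lowest of the 38. The third (78391333 to 78391399) was the strongest in WT and by the mean of both genotypes, and the second the strongest in KO. The third had a log2 ratio of -2.60 and the first -1.46, both held by no KO library, and the second (78391600 to 78391765) had 1.30. The summed ratio of -1.60 (0.0437 and 0.136) turned to 1.30 when only the second, held by 1 KO and 2 WT libraries, was kept. Over all footprints held by at least 1 library of both genotypes the median ratio was 0.28.

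Cdc42, a GTPase of cell polarity and of filopodia that acts through WASP, had 5 footprints in a 1410-nt 3′ UTR on chromosome 4. The annotation gives Cdc42 another 3′ UTR, that of an earlier alternative last exon known from the brain form of the protein (136877677 to 136878447), and 0 footprints overlapped it. From 5′ to 3′ the occupancies were 0.168, 0.277, 0, 0.0137 and 0.0134 in KO and 0.201, 0.274, 0.0230, 0.0875 and 0.0402 in WT. The first, held by all 6 libraries (136876876 to 136876941), and the second (136876680 to 136876743) were near equal, with log2 ratios of -0.26 and 0.01. No KO library held the other three, which include the miR-29 match. Of the footprints above 0 in both genotypes, the fourth (136876116 to 136876178) had the lowest ratio, -2.54, and the fifth had -1.48. Of the gene's summed occupancy the first footprint made up 35.6% in KO and 32.1% in WT, and the second 58.7% and 43.8%. The log2 ratio of the sums (0.471 and 0.626) was -0.41, and that of the strongest footprint alone 0.014.

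Iqgap1, a large scaffold that binds active Rac and Cdc42 and actin filaments, had 7 footprints in a 2252-nt 3′ UTR on chromosome 7, the first of them 660 nt past the coding sequence. Its sum was 2.27 in KO against 1.52 in WT (log2 ratio 0.58). From 5′ to 3′ the KO occupancies were 0.516, 0.177, 0.101, 0.0826, 0.168, 0.798 and 0.425, and the WT occupancies 0.383, 0.145, 0.218, 0.0556, 0.0362, 0.296 and 0.386. Of the 7, 6 were higher in KO (48.7% of all footprints were). At least 2 libraries of both genotypes held 6 of the 7, as they did 2196 of all 6270. Over all footprints so held the median log2 ratio was 0.42, and the Iqgap1 sum so restricted had 0.73. The highest ratio, 2.16, was that of the fifth (87856773 to 87856848; 3 KO and 2 WT libraries). The lowest, -1.10, was that of the third, with the miR-21 match (87857517 to 87857588; 1 KO and 3 WT libraries).

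The sixth and seventh Iqgap1 footprints lie 3 nt apart near the end of the 3′ UTR, were both held by all 6 libraries, and differed in ratio. The sixth (87856578 to 87856640) had 1.43 and was 35.2% of the gene in KO and 19.5% in WT. The seventh (87856504 to 87856574) had 0.14, and 18.7% and 25.4%. The strongest Iqgap1 footprint was thus the sixth in KO and the seventh in WT.

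**Figure D3:**
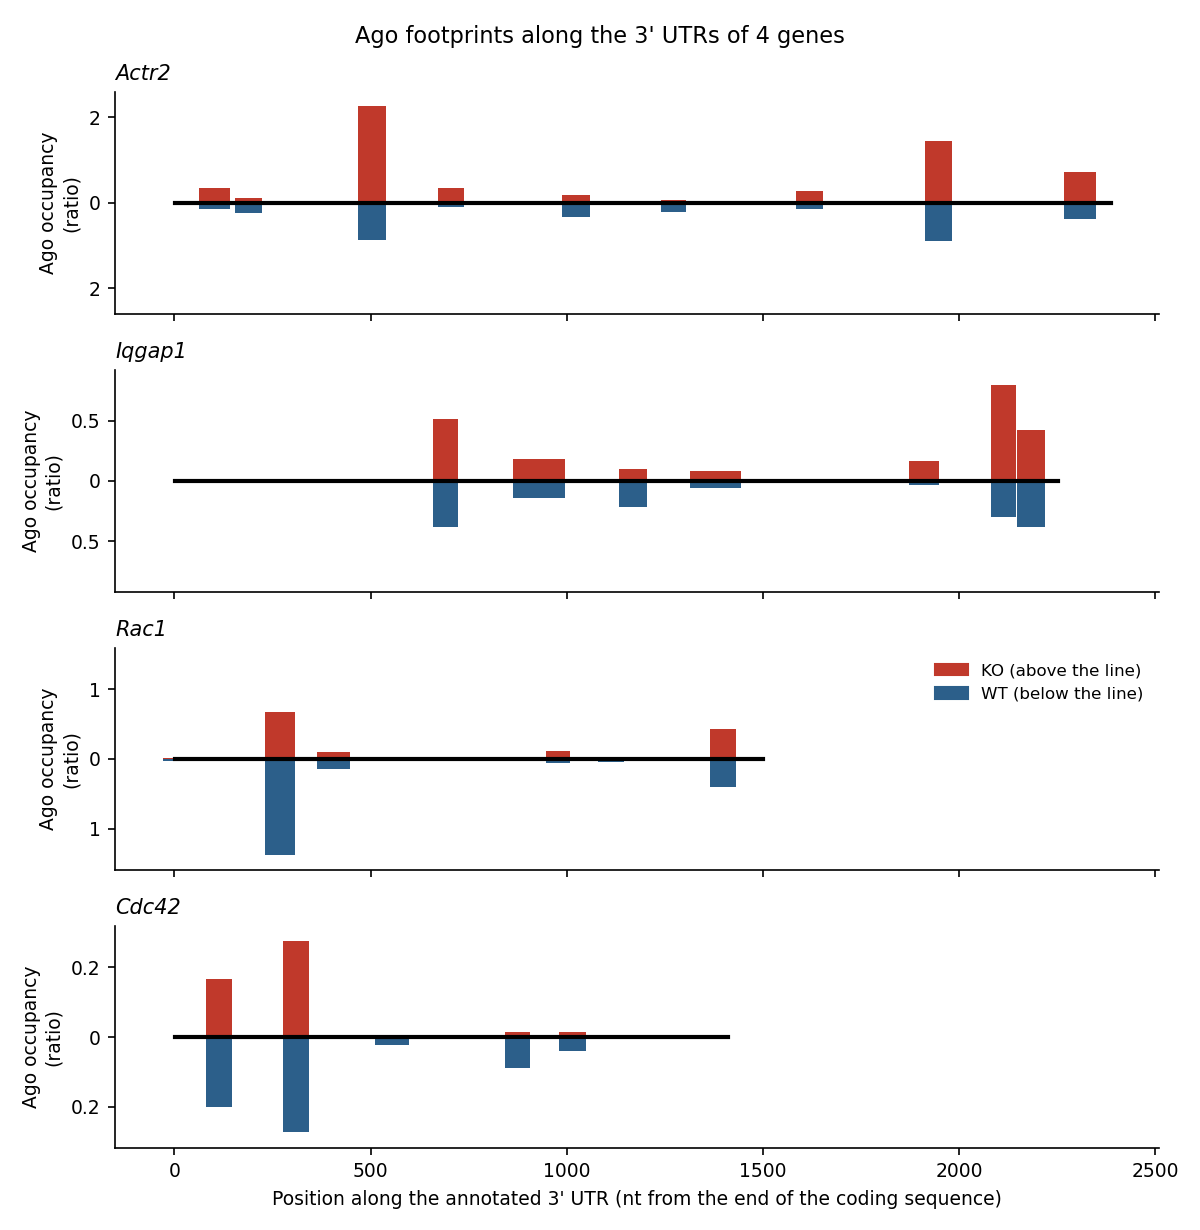
Ago occupancy (ratio; bars above the line KO, below the line WT) along the annotated 3′ UTR, in nt from the end of the coding sequence, for the 4 genes with at least 5 footprints; the black line is the 3′ UTR and the vertical scale differs between panels. Footprint positions come from a list common to both genotypes. The third and eighth footprints of Actr2 and the second of Rac1 are the main ones in both, though no KO library held that of Rac1. The sixth Iqgap1 footprint is taller in KO (0.798 and 0.296).

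Ratios within a gene thus spread widely, as they did in the table. Over footprints above 0 in both genotypes, the range from lowest to highest log2 ratio was 3.38 in Actr2, 3.26 in Iqgap1, 2.56 in Cdc42 and 2.00 in Rac1, against a median of 3.05 over the 383 genes of at least 5 footprints. With footprints listed at 0 placed by the pseudocount, the Cdc42 range was 3.95 and the median over those genes 3.65, and the other ranges stayed as they were. Of the 8 genes with at least 2 footprints, 4 (Actr2, Nckap1l, Rac2 and Iqgap1) had both a footprint 2-fold higher and a footprint 2-fold lower, against 31.4% of such genes in the table. Of the 4 genes with at least 5 footprints, 2 did so (Actr2 and Iqgap1), against 62.1%. Over the footprints of a gene, KO and WT occupancy had a Spearman coefficient of 0.517 in Actr2, 0.679 in Iqgap1, 0.943 in Rac1 and 1 in Cdc42. Over the 383 genes its median was 0.455, with quartiles of 0.159 and 0.7. The coefficient was 0.765 over the 38 footprints and 0.612 over all footprints. These points share libraries and, within a gene, a transcript.

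To compare levels between the genes, summed occupancy was divided by the length of the 3′ UTR. Per kilobase, Actr2 was highest in both genotypes (2.41 in KO and 1.41 in WT) and Rac2 lowest (0.0188 and 0.0586). In KO, Iqgap1 (1.01), Rac1 (0.918), Actr3 (0.442), Cdc42 (0.334), Nckap1l (0.319), Arpc5 (0.317) and Arpc2 (0.109) lay between them. In WT the order was Rac1 (1.38), Actr3 (0.881), Iqgap1 (0.675), Nckap1l (0.550), Cdc42 (0.444), Arpc2 (0.294) and Arpc5 (0.198). With no spread between libraries, it cannot be said which neighbours in these orders differ. The genes held 1.29 (Rac2) to 4.00 (Rac1) footprints per kilobase, against a median of 1.28 over the 2193 genes with a 3′ UTR footprint.

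The number of libraries that held a footprint moved with the ratio. At least 2 KO libraries held 18 of the 38 footprints (47.4%; 40.1% of all), and at least 2 WT libraries held 36 (94.7%; 94.9% of all). A footprint enters the table through 2 libraries of either genotype, and 20 of the 38 entered through WT alone (3753 of all 6270). Another 2 of the 38 entered through KO alone (321 of all 6270). These lie on Actr2 and include the footprint with that gene's highest log2 ratio, 1.79. No KO library held 12 of the 38 (31.6%; 27.9% of all). All 12 were lower in KO, while 282 of the 1752 such footprints of the table were higher. At least 2-fold lower were 9 of the 12 and 1054 of the 1752. In 11 of the 12 the table nonetheless lists a KO value above 0, as it does in 1462 of the 1752. The sources used here do not say how such values arose. Among the 18 held by at least 2 KO libraries, 15 were higher in KO (1809 of 2517 such footprints of the table) and the median log2 ratio was 0.63 (0.55 in the table). Iqgap1 gave 6 of these 18 and Actr2 another 6, while Actr3, Arpc2 and Rac2 gave none. Among the 16 held by at least 2 libraries of both genotypes, 4 were at least 2-fold higher in KO (26.2% of such footprints in the table) and 1 was lower (5.01%). Among the 26 held by at least 1 library of both, 9 were higher by that much (24.9%) and 3 lower (10.3%). Put the other way, of the 12 footprints at least 2-fold lower in KO, 3 had been held by at least 1 library of both genotypes. Over the whole table this was 464 of 1518. The 3 are close to that share. These 3 footprints are those of Arpc2, the third of Iqgap1 and the second of Nckap1l.

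All 6 libraries held 5 of the 38 footprints (5.89% of all), 3 of them on Iqgap1 and the others on Nckap1l and Cdc42. Their log2 ratios were 0.29, 1.43 and 0.14 for the second, sixth and seventh of Iqgap1, -1.34 for the second of Nckap1l and -0.26 for the first of Cdc42. These footprints, the best covered by libraries, also pointed in both directions. The part of library coverage in the ratios was not tested.

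Base composition moved with the ratio in the table as a whole, with a lower coefficient over these footprints. Over all footprints the Spearman coefficient of G+C content and log2 ratio was 0.325, and over the 38 it was 0.08, a difference that was not tested. The 38 ran from 20.0% to 62.3% G+C with a median of 42.6% (42.9% in the table). The eighth Actr2 footprint had the lowest G+C content, 20.0%, and a ratio of 0.70, while the median ratio was -0.82 in the lowest of 10 G+C groups of the table. The Rac2 footprints had 55.2%, 58.4% and 59.7%, and the 2 of them lower in KO (-2.60 and -1.46) lie under the median of their G+C group (0.40 and 0.62). With each ratio set against the median of its group, 9 footprints were at least 2-fold higher and 11 lower, with a median of 0.21. The part of base composition in single ratios was not tested.

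**Figure D4:**
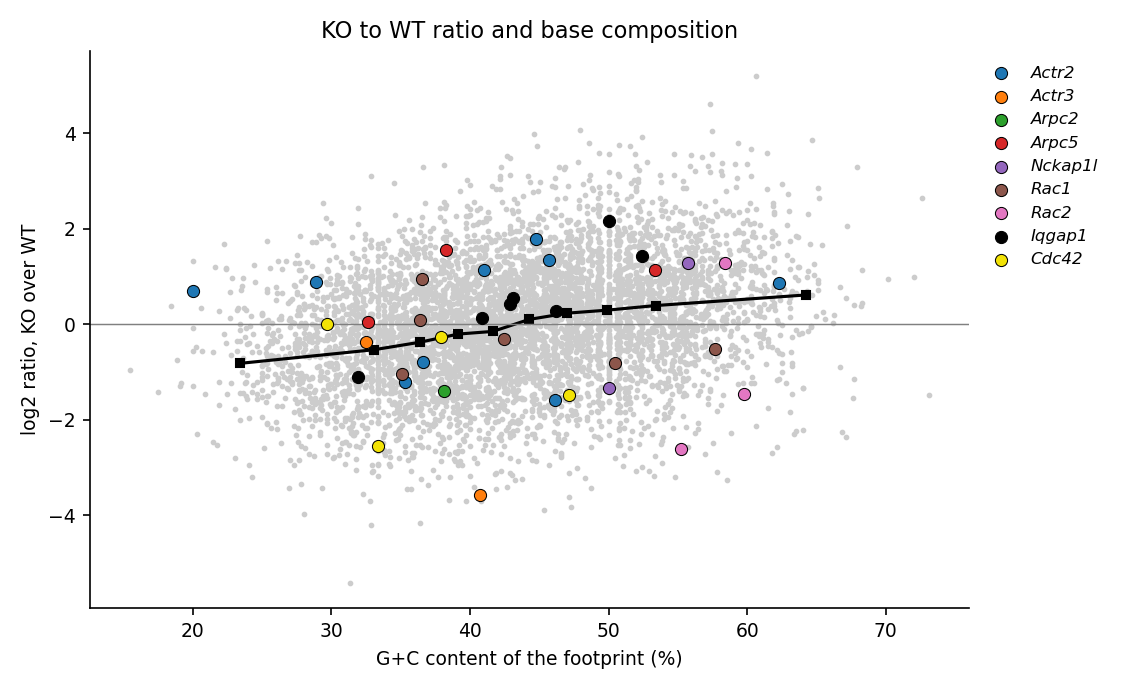
log2 ratio of KO over WT against the G+C content (%) of the footprint, for all footprints above 0 in KO (grey) and the 37 such footprints of the 9 genes (coloured by gene); black squares are medians of 10 groups of the whole table by G+C content. The squares climb from -0.82 to 0.62, and the coloured points lie on both sides of them.

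Other genes of the same pathways, taken from lists, gave no common direction. Of 10 Arp2/3 genes 6 held footprints, 3 higher and 3 lower in KO by sum (47.8% of all genes were higher). Besides the members these were the subunits Arpc1b (1.08 in KO and 2.04 in WT, log2 ratio -0.91) and Arpc4 (0.273 and 0.115, 1.24). Of 11 WAVE complex genes 4 held footprints, 2 in each direction, with Wasf2, the main WAVE protein of blood cells (2.26 and 1.71, 0.40), and the adaptor Abi1 (1.56 and 2.49, -0.68). No WAVE gene passed 2-fold (11.7% of all genes were 2-fold higher and 17.9% 2-fold lower).

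The exchange factors and inhibitors of Rac and Cdc42 split into 7 higher and 7 lower of 14 with footprints (22 listed). By at least 2-fold, 1 was higher (11.7% of all genes) and 5 lower (17.9%), 1 of the latter (Arhgap25) listed at 0 in KO. The higher one was Vav1, named after its value was seen (3.32 in KO and 0.592 in WT, 2.49), and no Vav1 footprint was held by more than 1 WT library. Dock2, the exchange factor that activates Rac in blood cells, had 5.25 in KO and 6.41 in WT (-0.29), and Srgap2, a GTPase-activating protein of Rac, 6.35 and 5.58 (0.19). Of 16 effectors 7 held footprints and 6 of these were higher in KO (47.8% of all genes were). The median log2 ratio of the 7 was 0.27 (-0.04 over all genes), and Pak1 was listed at 0 in KO. Among the 6 is Cdc42ep3, whose single footprint no KO library held. Pak2, a kinase activated by Rac and Cdc42, had 2.41 and 1.99 (0.27), and Cdc42se2, a small Cdc42-binding protein, 1.67 and 1.26 (0.41). Of 31 genes for actin and its binding proteins 20 held footprints, 12 higher and 8 lower (47.8% of all genes were higher). By at least 2-fold, 2 went in each direction (11.7% of all genes higher and 17.9% lower). Marcks, which tethers actin to the membrane, had 7.72 and 6.72 (0.20), and its relative Marcksl1 2.46 and 6.41 (-1.38).

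For the cells themselves, 8 of 12 macrophage marker genes held footprints, with sums from 0.0380 to 4.08 in KO and 0.0694 to 3.43 in WT. They include Emr1, which encodes F4/80, and Itgam, which encodes CD11b, the markers the submitters followed by flow cytometry. None of 7 T and B cell, 5 neutrophil, 5 stromal fibroblast or 4 dendritic cell marker genes held one. Only 2222 genes held any footprint. A footprint list shows Ago-bound RNA and is no measure of expression or of the purity of the cells. Apobec1 itself held 3 footprints, with sums of 0.312 in KO and 0.372 in WT.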

How the data were processed

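Ago HITS-CLIP was made from 6 libraries, 3 WT and 3 APOBEC1 KO, grouped by their titles. The authors, per the series' design text, aligned reads to mm9, merged overlapping longer reads and cut a footprint at each peak. The submitters' processing notes name Bowtie 0.12.8 and also bedtools. The deposited occupancy is a ratio the authors made by dividing footprint signal by transcript expression from RNA-Seq, with 1 value per genotype. The way libraries were combined and scaled is not given in the sources. The deposited table also gives the number of libraries (0 to 3) that held each footprint. It holds no read counts, so the depth is unknown.

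Footprints were placed on NCBIM37 (the assembly of mm9) with GENCODE vM1, counted from 1 and read with pysam 0.24.0. Annotation classes were ranked with 3′ UTR first and coding sequence next. Of the 6270 footprints, 6161 were placed on 2222 genes. The log2 ratio of KO over WT used a pseudocount of 0.00161, 50% of the smallest value above 0, which understates differences of low values. No test was made, since a genotype has 1 value, and 2-fold describes size. Gene values are sums over footprints. Positions along a 3′ UTR follow the transcript that holds most footprints, the longest where several do. Seed matches are to bases 2 to 8 of the mature miRNA. The counting was tested on simulated data.

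The genes and lists were chosen with earlier results of these data known. Named were all 9 genes, the strongest and extreme footprints of each, and from each other pathway list the 2 genes of highest mean summed occupancy. Outside this rule, Vav1, Arhgap25, Pak1, Cdc42ep3, the markers Emr1 and Itgam, and Apobec1 were also named. The result of 1 further gene list is not reported here. Of the alternatives, restriction to footprints held by at least 1 library of both genotypes and centring by G+C content were added after the data were examined.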

Additional observations from a re-analysis of the deposited data

How the results depend on the processing

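No paired analysis was possible because the table holds 1 combined value per genotype, and for the same reason no replicate could be left out. The median log2 ratio of the 38 footprints stayed between -0.29 and 0.63 over 16 alternatives. The 0.63 was that of the 26 held by at least 1 library of both genotypes, and the table median so restricted was 0.28. The count at least 2-fold higher in KO, 9 as reported, was 0 with a pseudocount of 1, 4 among the 16 footprints that at least 2 KO and 2 WT libraries held, and 2 among the 8 strongest (mean not below the median of all). The count lower, 12 as reported, was 0, 1 and 2 in the same order, and 3 among the 26 held by at least 1 library of both genotypes. The last restrictions hold fewer footprints. With the pseudocount set to 1, the table had 1.66% of its footprints at least 2-fold higher and 2.03% lower. Of all footprints meeting the mean cut-off of the 8, 20.9% were higher and 20.0% lower by that much. For the rule behind the 16 the table shares were 26.2% and 5.01%. For the rule behind the 26 the share lower was 10.3%. The shrinkage with a pseudocount of 1 follows from occupancies mostly below it. Summed ratios changed sign in Rac1 (0.96 with at least 2 libraries of both genotypes, 0.24 with at least 1), Rac2 (1.30 with at least 1) and Cdc42 (0.014 by the strongest footprint). These library restrictions also raised the median over all footprints, from -0.04 to 0.42 with at least 2 and 0.28 with at least 1. Footprints with a seed match, 6 as reported, numbered 15 (39.5%; 48.1% of all) with bases 2 to 7, 2 with the 8-nt form and 2 in the central part of the footprint (11.4% of all). No depth is known, so no value can be weighed by its reads.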
